A study of Homo sapiens with 2 samples.

Results

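E3 ubiquitin ligases and the adaptors of the cullin ligases were examined in RNA-seq of HepG2, a human hepatocellular carcinoma cell line. The members were the protein-coding genes whose symbols start with any of 19 family prefixes (such as Rnf, Trim, Cul, Fbx, Klhl, Dcun1d, Herc and Wwp). The rule took 91 of the 3764 listed genes. A total of 48 members had at least 20 counts over both libraries and were compared gene by gene, and the other 43 are described by their counts. The vector library came from HepG2 cells with the genotype label WT and a vector control. The knockout library came from HepG2 cells in which SCRN1 (secernin 1) was knocked out with CRISPR-Cas9. Neither culture was treated, both grew in serum-supplemented medium, and the labels do not say whether the knockout was a single clone.

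An E3 ligase brings a ubiquitin-charged E2 enzyme to a substrate and so decides which protein is marked, often for the proteasome. HECT ligases first take ubiquitin onto themselves, whereas RING ligases hold the E2 beside the substrate. Cullins are scaffolds: CUL1 recruits substrates through F-box proteins and CUL3 through BTB-Kelch proteins, and a cullin becomes active when the ubiquitin-like protein NEDD8 is attached to it, a step that DCUN1D proteins promote.

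There was 1 library per group, so differences between cultures could not be tested, and every interval below is a 95% exact interval for counting error alone. Where a pair of counts is given, the vector library comes first. Total counts were 178421 (vector) and 163644 (knockout). The median member had 22 counts over both libraries, against 18 for listed protein-coding genes and 11 for all listed genes. All 3764 genes carry mouse Ensembl identifiers and mouse symbols although the labels state human cells, and what this does to a gene's count was not tested. A mouse reference used for human reads and a table made from other samples cannot be told apart here, so the values below are those of the deposited table, named by its column labels. The label could not be checked further: 0 of 3 secernin genes and 0 of 12 hepatocyte and HepG2 markers, among them Alb, Afp and Hnf4a, were listed. Of 4 general markers 3 were listed, with summed counts of 33 and 10, Actb holding 16 and 7. Of 7 fibroblast or mesenchymal markers 4 were listed, with summed counts of 51 and 30 and no common direction. Twist2 had 33 and 4 counts, Col1a1 had 6 and 4, Vim had 12 and 15 and Fn1 had 0 and 7. Of 6 leukocyte markers 1 was listed, with 21 and 3. Whether those reads bear on the members was not tested.

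As a group the members were nearly level between the libraries. They held 3145 and 2906 counts, which is 1.76% and 1.78% of all counts. The pooled knockout over vector ratio was 1.02 (0.972 to 1.08) after TMM scaling. A member was called when it differed by 2-fold or more in either direction and its interval excluded 1. This rule called 2 of the 48 compared members (4.17%), Wwp1 higher and Rnf103 lower in the knockout library. Over all 1588 compared genes the same rule called 7.24%, with 3.34% higher and 3.90% lower. The members' share rests on 2 genes, and its difference from that background was not tested. With median-of-ratios scaling (DESeq2 size factors), which shifts every log2 ratio by -0.15, 2 members were again called but both were lower, Rnf103 and Fbxl19. That scaling called 42 of all compared genes higher and 89 lower, where TMM gave 53 and 62. The median log2 ratio was -0.03 over the compared members and 0.03 over all compared genes. A total of 33 compared members (68.8%) lay within 1.5-fold, against 75.8% of all compared genes.

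**Figure D1:**
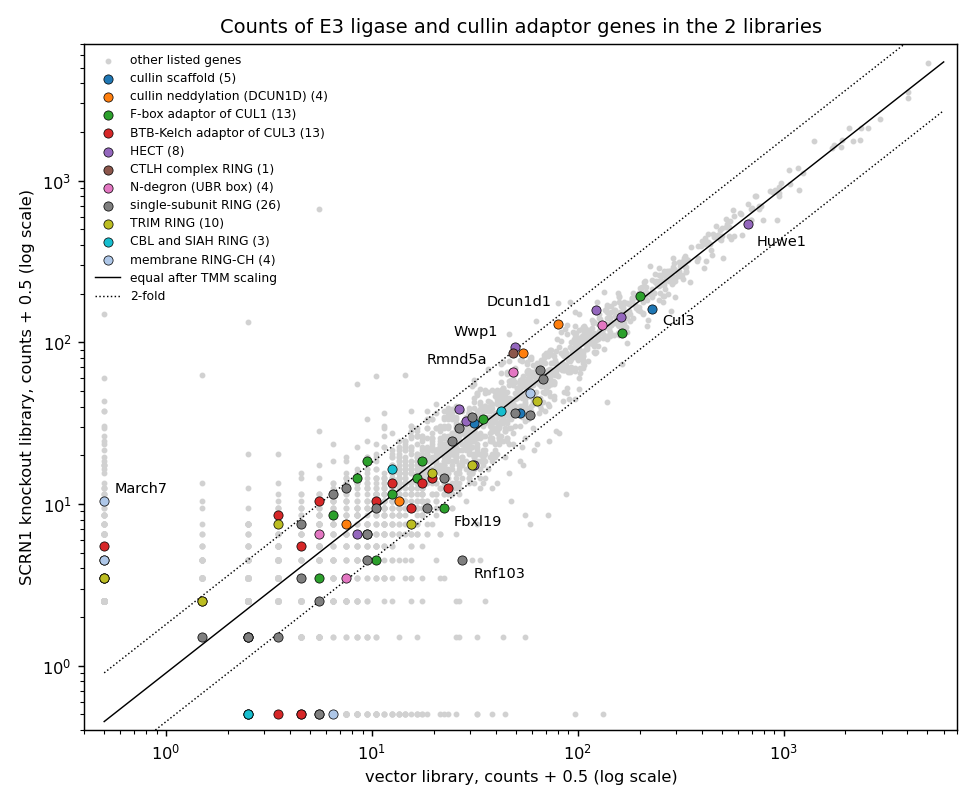
Counts plus 0.5 in the vector library (x axis, log scale) and the SCRN1 knockout library (y axis, log scale) for the 91 members, coloured by role, over all other listed genes in grey. Most members lie between the dotted 2-fold lines, while Wwp1 (49 and 93 counts) lies just past the upper one and Rnf103 (27 and 4 counts) lies below the lower one.

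The call was also read with other folds. With no minimum fold, the interval excluded 1 for 10 of the 48 compared members, 6 higher and 4 lower in the knockout library. That is 20.8%, against 16.5% of all compared genes. Among the 16 members with at least 100 counts it did so for 9 (56.2%), against 22.0% of all genes of that depth, a difference in shares that was not tested. Of these 16 members 75.0% lay within 1.5-fold, against 91.2% of genes of that depth. In the same 16 members the 2-fold rule called 1 (6.25%), against 2.28% of genes of that depth. With a fold of 1.5 in place of 2, 5 of the 48 members were called, 4 of them higher, where the background was 11.4%. The added members at 1.5-fold were Dcun1d1, Dcun1d5 and Rmnd5a.

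Of 3 compared cullin scaffolds 0 were called, and the interval of Cul3 lay below 1. Cul3, the scaffold of the BTB-adaptor ligases, had 228 and 161 counts, a ratio of 0.781 (0.635 to 0.960). It did not reach 2-fold. Cul1, the scaffold of the F-box ligases, had 52 and 36 counts, a ratio of 0.766 (0.487 to 1.195), with an interval that includes 1. Cul4b, which recruits substrates through DDB1, had 31 counts in each library. Cul5 had 4 and 0 counts and Cul2 had 2 and 0, too few to compare. The 5 listed cullins together had 317 and 228 counts, a pooled ratio of 0.796 (0.668 to 0.947). Without Cul3, which held most of these counts, the ratio was 0.833 (0.598 to 1.16), a similar value with a wider interval that includes 1.

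Of 3 compared DCUN1D genes, whose products help load NEDD8 onto cullins, 0 were called and 2 had intervals above 1. Dcun1d1 had 80 and 129 counts, 1.79-fold higher (1.34 to 2.39). Dcun1d5 had 54 and 86 counts, 1.76-fold higher (1.24 to 2.53). Both intervals excluded 1 and neither gene reached the 2-fold rule. Dcun1d4 had 13 and 10 counts, and Dcun1d3 had 7 and 7, so the difference was not detectable in either. The 4 genes pooled had 154 and 232 counts, 1.67-fold higher (1.35 to 2.06), and 1.54-fold higher (1.13 to 2.11) without Dcun1d1, where Dcun1d5 held most of the counts that remained. In the table's mouse positions, for which no build is named, Dcun1d1 lies at chr3:35892105-35937445, Dcun1d5 at chr9:7184520-7208205 and Cul3 at chr1:80264923-80340480.

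The pooled DCUN1D count was set against the pooled cullin count inside each library, a comparison chosen after the values were seen and free of any scaling between libraries. It was 0.486 for vector and 1.02 for knockout, a relative change of 2.09 (1.59 to 2.76). The change was 1.93 (1.35 to 2.77) without Dcun1d1 and 1.999 (1.35 to 2.97) without Cul3. The pooled ratios of the roles, 1.67 and 0.796, were already known to lie on opposite sides of 1, so none of these changes is a test. The values within each library are ratios of counts, not of levels per length, so only the change between libraries can be read.

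**Figure D2:**
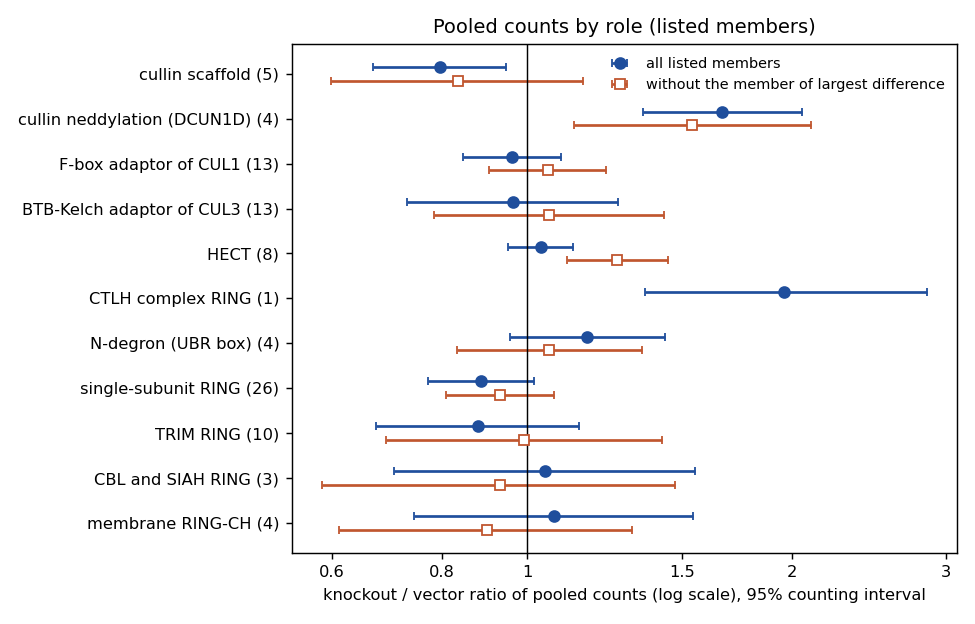
Knockout over vector ratio of counts pooled over the listed members of each role (x axis, log scale), with 95% counting intervals, for all listed members (filled) and without the member of largest difference in scaled counts (open). The DCUN1D genes stay above 1 either way (1.67 and 1.54), the cullins move from 0.796 to 0.833 with an interval that includes 1 once Cul3 is left out, and the HECT ligases move from 1.04 to 1.27 once Huwe1 is left out.

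F-box genes, the substrate adaptors of CUL1, showed no common direction: of 9 compared, 6 had a ratio above 1 and 3 below, and 0 were called. With median-of-ratios scaling Fbxw2 (0.970), Fbxw11 and Fbxo33 moved below 1, so that 3 ratios lay above 1 and 6 below, and Fbxl19 was called lower. With library totals 5 lay above 1 and 4 below. Fbxw2 was the F-box gene with the most counts, 200 and 194, a ratio of 1.07 (0.877 to 1.31). Fbxo11, whose product targets BCL6, had 164 and 113 counts and a ratio of 0.763 (0.595 to 0.975). Fbxw11, a beta-TrCP protein that recognises phosphorylated substrates such as beta-catenin, had 34 and 33 counts. The widest F-box ratios came from sparse genes. Fbxl20 had 9 and 18 counts, a ratio of 2.21 (0.944 to 5.59), and Fbxl19 had 22 and 9, a ratio of 0.453 (0.184 to 1.02). Fbxl5, the iron-sensing adaptor for IRP2, had 8 and 14 counts, a ratio of 1.94 (0.758 to 5.33). All 3 intervals include 1. The 13 listed F-box genes pooled had 512 and 445 counts, a ratio of 0.962 (0.845 to 1.09), or 0.869 (0.764 to 0.989) with median-of-ratios scaling.

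BTB-Kelch genes, the adaptors of CUL3, were sparsely counted. Of 13 listed, 6 were compared and 0 were called, with ratios from 0.577 for Klhl9 to 1.20 for Klhl7. Klhl9, which acts with KLHL13 on Aurora B in mitosis, had 23 and 12 counts. Its partner Klhl13 had 5 and 10 counts, below the minimum for comparison. Klhl24 had 19 and 14 counts, and Kbtbd2 had 17 and 13. Pooled over the 13 genes the counts were 116 and 101, a ratio of 0.964 (0.731 to 1.27). Set against Cul3 within each library, these adaptors gave 0.509 and 0.627, a relative change of 1.23 (0.870 to 1.75) that includes equality.

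HECT ligases held the most counts of any role, 1094 and 1024, and included the member called higher. Wwp1, a NEDD4-family ligase that binds PY-motif substrates through WW domains, had 49 and 93 counts and was 2.10-fold higher in the knockout library (1.47 to 3.03). It lies at chr4:19608303-19708993 in the mouse annotation of the table and overlaps no other listed gene. With median-of-ratios scaling its ratio was 1.90 (1.33 to 2.74) and it was no longer called. The authors' adjusted p from edgeR compares 1 library with 1, so it does not test differences between cultures and is not quoted for any member. Itch, a relative of Wwp1 in the NEDD4 family, had 28 and 32 counts, a ratio of 1.27 (0.738 to 2.18). Wwp1 over Itch gave a relative change of 1.66 (0.856 to 3.21), so these genes were not shown to differ in their change between the libraries. Wwp1 over the other HECT members pooled gave 2.13 (1.47 to 3.11). Both ratios were computed after the values were seen, so neither is a test.

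The other HECT ligases did not reach 2-fold. Huwe1, a very large ligase with p53 and MCL1 among its substrates, had 669 and 538 counts, the most of any member. Its ratio was 0.890 (0.793 to 0.998), with an upper bound next to 1. Ube3a, the E6-associated protein ligase whose loss causes Angelman syndrome, had 161 and 143 counts, a ratio of 0.983 (0.779 to 1.24). Herc4 had 122 and 157 counts, a ratio of 1.42 (1.12 to 1.82), and its larger relative Herc1 had 26 and 38, a ratio of 1.62 (0.957 to 2.77). Ube3c, a proteasome-associated ligase, had 31 and 17 counts, a ratio of 0.607 (0.315 to 1.13). Pooled over the 8 HECT members the ratio was 1.04 (0.9503 to 1.13), or 0.936 (0.859 to 1.02) with median-of-ratios scaling. Without Huwe1, which held more counts than the other 7 together in both libraries, it was 1.27 (1.11 to 1.44).

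Rmnd5a, a catalytic RING subunit of the CTLH complex, was just short of the call. It had 48 and 85 counts, 1.96-fold higher (1.36 to 2.85). The 5 other listed CTLH genes had ratios from 0.837 to 1.84 and 0 calls. Ranbp9, a scaffold of the complex, had 324 and 245 counts, a ratio of 0.837 (0.706 to 0.991), and Wdr26, a substrate-receptor subunit, had 107 and 108. Rmnd5a over those 5 genes pooled gave a relative change of 2.05 (1.39 to 3.05), computed after the values were seen, so it is no test. In the N-degron family, Ubr4, which recognises N-terminal degrons, had 48 and 65 counts, a ratio of 1.499 (1.02 to 2.22), or 1.35 (0.918 to 2.01) with median-of-ratios scaling. Ubr4 overlaps Emc1, which had 1 and 2 counts.

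Among 26 listed Rnf genes, 10 were compared and 1 was called. The figures label this class single-subunit RING, although it was formed by symbol and holds Rnf2, a subunit of a complex. Rnf103, a RING ligase of the endoplasmic reticulum membrane, had 27 and 4 counts. That is 6.10-fold lower with the knockout (2.13 to 24.0). Rnf103 lies at chr6:71493894-71510881, 53.3 kb from Rmnd5a at chr6:71388634-71440637 in the mouse annotation. The neighbours had ratios on opposite sides of 1, and Rmnd5a was not called. Rmnd5a over Rnf103 was 1.78 for vector and 21.3 for knockout, a relative change of 11.8 (3.79 to 49.1). This ratio was computed after both differences were seen, so it is no test, and its knockout value rests on 4 Rnf103 counts.

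The other Rnf genes differed less. Rnf10 had 65 and 67 counts, a ratio of 1.14 (0.799 to 1.63), and Rnf11, a partner of NEDD4-family ligases, had 67 and 59, a ratio of 0.974 (0.675 to 1.40). Rnf220 had 58 and 35 counts, a ratio of 0.668 (0.426 to 1.03). Rnf111 (Arkadia), which promotes TGF-beta signalling, had 22 and 14 counts, a ratio of 0.704 (0.333 to 1.44). The remaining compared Rnf genes ranged from 0.553 for Rnf44 to 1.25 for Rnf114, with intervals that include 1. The class pooled to 462 and 370 counts, a ratio of 0.886 (0.771 to 1.02), and to 0.931 (0.808 to 1.07) without Rnf103. With median-of-ratios scaling the class ratio was 0.801 (0.697 to 0.920).

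All 4 compared TRIM genes had ratios below 1 and 0 were called. Trim33, which acts on SMAD4, had 63 and 43 counts, a ratio of 0.755 (0.5003 to 1.13). Trim41 had 30 and 17 counts, a ratio of 0.627 (0.325 to 1.17), and overlaps Rack1, which had 3 and 2. Trim27 had 19 and 15 counts and Trim23 had 15 and 7. Each of the 4 intervals includes 1. The 10 listed TRIM genes pooled to 131 and 104 counts, a ratio of 0.879 (0.673 to 1.15). Trim62, Trim24, Trim37 and Trim66 had no count for vector and 3 or 4 counts each for knockout.

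The last groups were small. Cbll1 (Hakai), which targets E-cadherin, had 42 and 37 counts, a ratio of 0.975 (0.609 to 1.55). Siah2, which degrades prolyl hydroxylases under hypoxia, had 12 and 16 counts, a ratio of 1.48 (0.655 to 3.42). March6, a sterol-regulated ligase of the endoplasmic reticulum, had 58 and 48 counts, a ratio of 0.916 (0.612 to 1.37). March7 had 0 and 10 counts. After scaling, its count in the knockout library was 3.69-fold a floor of 3 counts in the vector library. The lower limit of its ratio was 2.48 once counting error in both libraries is taken in, and its summed count lay below the minimum for a call. March5, a mitochondrial ligase, had 6 and 0 counts, and its gene overlaps Cpeb3, which had 13 and 6.

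**Figure D3:**
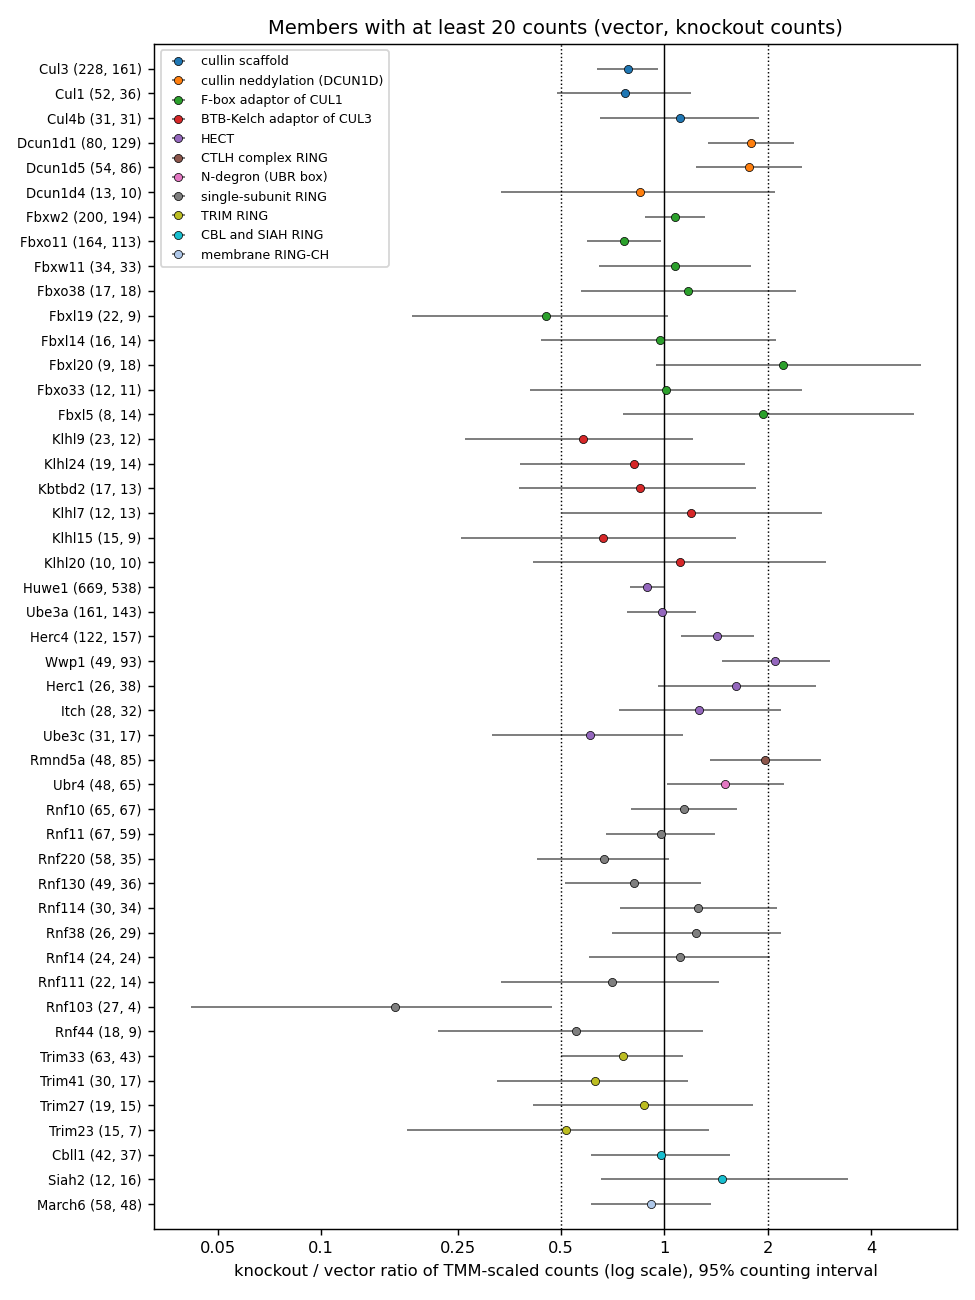
Knockout over vector ratio of TMM-scaled counts (x axis, log scale) with 95% exact counting intervals for members with at least 20 counts, grouped and coloured by role, with vector and knockout counts in brackets. Dotted lines mark 2-fold. Wwp1 and Rnf103 are the members past a dotted line with an interval that excludes 1, while Fbxl20 and Fbxl19 are past it with intervals that include 1.

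The 43 members below 20 counts summed to 171 and 168 counts. For a gene with no count, the upper limit (3 counts) is 16.8 CPM for the vector library and 18.3 CPM for the knockout library. Of these 43, 9 had no count in the knockout library (20.9%), against 21.5% of all 2176 listed genes of that depth. The 9 were March5, Rnf121, Rnf138, Cul5, Klhl29, Kbtbd4, Cbl, Cul2 and Rnf145, with 2 to 6 counts in the vector library. A further 7 had no count in the vector library (16.3%), against 9.60% of genes of that depth. They were March7, Klhl23, March8 and the 4 TRIM genes above. None of the 48 compared members was at 0 in either library. Fbxw7, the adaptor for cyclin E and MYC, had 5 and 3 counts, Smurf2, which targets SMAD proteins, had 8 and 6, and Rnf2, the catalytic subunit of Polycomb repressive complex 1, had 7 and 12.

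Levels per length were compared on the authors' FPKM scale, with Poisson intervals of the underlying counts. The genes are mouse models for cells labelled human, and what this does to a gene's count was not tested. The order below is therefore that of the deposited values, not shown to be that of levels in HepG2. Cul3 was highest in mean FPKM over both libraries, at 203 (178 to 231) for vector and 156 (133 to 183) for knockout. Fbxo11 followed at 155 (132 to 181) and 116 (96.0 to 140). Huwe1, first by counts, came next at 123 (114 to 132) and 108 (98.6 to 117), and did not differ from Rnf130 at 127 (93.7 to 167) and 101 (71.1 to 140) beyond counting error. Dcun1d5 was at 77.2 (58.0 to 101) for vector and 134 (107 to 166) for knockout. On this scale it stood below Huwe1 in the vector library, with intervals that do not overlap, and overlapped it in the knockout library. Cul1 at 48.4 and 36.5 and Cul4b at 30.1 and 32.8 were well below Cul3 in both libraries.

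**Figure D4:**
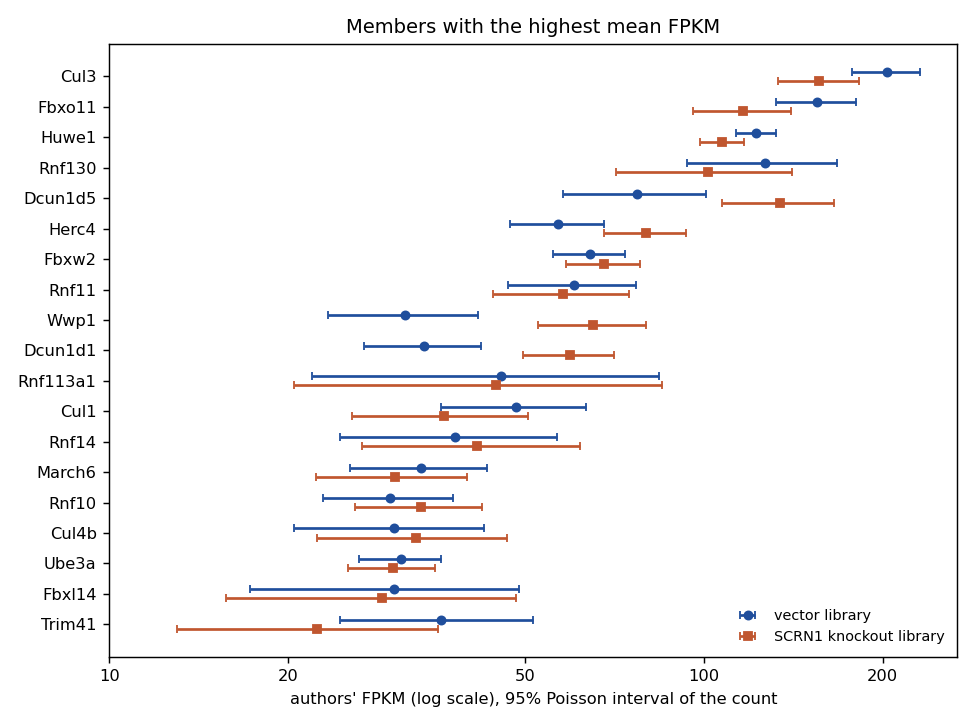
Authors' FPKM (x axis, log scale) in the vector library (circles) and the SCRN1 knockout library (squares) for members with the highest mean FPKM, with 95% Poisson intervals of the counts. Cul3 has the highest value in both libraries (203 and 156), and Wwp1, Dcun1d1 and Dcun1d5 show intervals that do not overlap between the libraries.

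The rest of the ubiquitin pathway was read from 10 lists of other genes, of which 93 of 240 symbols were listed and 59 compared. Of these 59, 2 were called (3.39%, against 7.24% of all compared genes), Uba1 higher and Ube2r2 lower, and the median log2 ratio was 0.08. Of the genes for ubiquitin itself 1 was listed, with 0 and 2 counts. Uba1, the main ubiquitin-activating E1, had 0 and 60 counts. After scaling, its count in the knockout library was 22.1-fold a floor of 3 counts in the vector library. The lower limit of its ratio was 17.45 once counting error in both libraries is taken in. This rests on 1 library per group, and what left the vector library without a Uba1 count was not tested. Ube2r2, an E2 of the cullin-RING ligases, had 53 and 22 counts, 2.18-fold lower (1.301 to 3.76), and was 1 of 13 compared E2 genes. Ube2d3 (459 and 447 counts) and Ube2d2a (292 and 308), the general-purpose E2 genes with the most counts, were near level.

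The NEDD8, COP9 and core lists of the cullin system gave 0 calls with 4 compared genes each, too few to set against the 7.24% called among all compared genes. In the NEDD8 list 4 genes were compared, with Uba3, of the NEDD8 E1, at 109 and 102 counts and the NEDD8 E2 gene Ube2m at 85 and 72. Cand1, which exchanges cullin adaptors, had 15 and 6 counts, a ratio of 0.443 (0.141 to 1.21). In the COP9 signalosome, which removes NEDD8, 4 genes were compared, with ratios from 0.959 to 1.97 and Cops2 at 248 and 238 counts and Cops6 at 214 and 205. The 4 compared linker and core genes had ratios from 0.998 to 1.13, with Arih1 at 184 and 188, Skp1a at 141 and 143 and Rbx1 at 71 and 64. In the other cullin receptors (12 compared), Kcmf1, kept there although it encodes a ligase and not a cullin receptor, had 278 and 239 counts. Ivns1abp had 102 and 64, a ratio of 0.694 (0.4999 to 0.958). In the anaphase-promoting complex (3 compared), Anapc5 had 106 and 108 counts and Cdc27 had 33 and 51, a ratio of 1.71 (1.08 to 2.74).

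Ligases outside the prefix rule gave 13 compared genes and 0 calls. Rc3h2 had 301 and 252 counts and Trip12, a HECT ligase, had 271 and 274. In the deposited KEGG annotation, 20 of the 91 members belong to the ubiquitin-mediated proteolysis pathway. The other 44 listed genes of that pathway gave 29 compared genes, of which 6.9% were called, against 7.24% of all compared genes. The called genes were Uba1 and Ube2r2. Most of the 29 also stand in the lists above, so this is no separate count.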

How the data were processed

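RNA-seq of 1 vector and 1 SCRN1 knockout library was grouped by the genotype labels. Per the submitters' processing notes, the tools included HISAT2 2.0.4, StringTie 1.3.0 and bcl2fastq 2.19, and the build named was GRCh38. No source used here names the counting tool, its strand setting, its handling of shared reads or a mouse build. The authors' table holds raw counts, FPKM values (per the file headers) and p-values with adjusted p from edgeR (per the file name), which compare 1 library with 1.

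Counts were scaled with TMM (edgeR 4.0.16, R 4.3.3), and each ratio was given an exact conditional binomial interval at 95% (SciPy 1.17.1, Python 3.11.15). Log2 ratios of the deposited counts used a pseudocount of 0.5. With 1 library per group the quasi-likelihood test could not be fitted, so the call rule compares these libraries, not the conditions. Since reads may be copies of one molecule, all intervals and floors describe counting error alone. Alternatives covered scaling (upper quartile, size factors from DESeq2 1.42.0, library totals), the fold and the count minimum.

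The members, lists and rules were chosen with earlier results of these data known. Named were called members, those with at least 100 counts, the 2 with the most counts in each role and, of each pathway list, called genes and its 2 most abundant. Some genes under this rule are not reported here individually or drawn in the plots of single ratios and levels. Others named for a role or an extreme value were chosen after their values were seen. RefSeq promoters of the human build were not used, since the table lists mouse genes.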

Additional observations from a re-analysis of the deposited data

How the results depend on the processing

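No paired analysis was possible because each group had 1 library, and for the same reason no library could be left out. Library totals and upper-quartile scaling kept the same 2 called members. With DESeq2 size factors, which gave both libraries equal effective totals, Wwp1 (1.90) was no longer called and Fbxl19 was called lower, the members' median log2 ratio moved to -0.18 (all compared genes -0.12), and pooled ratios of the F-box (0.869) and Rnf (0.801) genes had intervals below 1. Without the member of largest difference the HECT ratio was 1.27, with an interval above 1, and the cullin ratio was 0.833, with an interval that includes 1. For the other roles, the pooled interval excluded or included 1 as before under these settings.

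The count minimum and the fold moved the number of calls. With a minimum of 50 counts 1 of 26 members (Wwp1, 3.85%) and 42 of 1019 genes (4.12%) were called, and the members' median was 0.11. With a minimum of 10, 3 of 65 members (4.62%) and 188 of 1969 genes (9.55%) were called. With no minimum 5 of 91 members (5.49%) were called, adding Klhl23, March5 and March7, against 295 of 3764 genes (7.84%). A fold of 1.5 gave 5 of 48 members (10.4%) and 181 of 1588 genes (11.4%). No fold minimum gave 10 of 48 members (20.8%) and 262 of 1588 genes (16.5%). Leaving out members that overlap a listed gene, chosen after seeing the data, kept 2. Depth limits the sparse members most, since 43 of 91 had fewer than 20 counts.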
